A study of Homo sapiens with 4 samples.

Results

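The region described here lies on chromosome 17 from 47800000 to 48500000 in hg19 and holds the homeobox genes DLX4 and DLX3 and the collagen gene COL1A1. Its members are all pairs of anchors, the fixed intervals between which contacts were counted, in which the midpoint of at least 1 anchor falls inside these bounds. The rule gave 2340 of the 720049 anchor pairs of the series, on 36 of 39507 anchors. Of the 2340 pairs, 332 were intrachromosomal and 2008 joined the region to another chromosome. The region was chosen by position around a strong contact that ends at the DLX3 start, and that contact had been selected on its summed PET count in these same data. The counts of that contact, and of the anchors it joins, are therefore given as a description without a test.

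Contacts were measured by ChIA-PET for SMC1, a core subunit of cohesin, in Kelly, a human neuroblastoma cell line. In ChIA-PET, DNA fragments held together by the precipitated protein are ligated to each other, and the ends of each ligated fragment are read as 1 paired-end tag (PET). All cells had acquired resistance to TAE684, which inhibits the kinase ALK, and were grown in 1 µM of it. They were infected for 24 h with virus carrying either a short hairpin against BORIS (shBORIS, 2 libraries) or the control hairpin shLUC (2 libraries), in the presence of 8 µg/ml polybrene, which aids viral entry, and then selected with puromycin for 48 h. The labels do not say whether the libraries of a group came from separate cultures or, for shBORIS, from different hairpins. The libraries of each group were deposited as 1 pooled table, so each value below is a single count per group with no replicate error. Intrachromosomal PETs totalled 146140 for shLUC and 163041 for shBORIS. BORIS (CTCFL) is a DNA-binding protein closely related to CTCF. The level of BORIS in these cells was not analysed here.

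Cohesin extrudes loops of chromatin and is commonly halted where CTCF is bound, so that cohesin ChIA-PET recovers the feet of such loops together with contacts of promoters and enhancers. The DLX genes encode homeodomain transcription factors and occur in the genome as neighbouring pairs whose members are transcribed towards each other. DLX3 acts in the differentiation of epidermis, hair, teeth, bone and placenta, and DLX4 is its paired neighbour, known mainly from placenta and blood. COL1A1 encodes the alpha 1 chain of type I collagen, the main fibrillar collagen of bone, skin and tendon, and is a gene of mesenchymal cells.

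In hg19 DLX4 spans 48046562 to 48052323 and is read towards higher coordinates. DLX3 spans 48067369 to 48072588 and COL1A1 48261457 to 48279000, and both are read towards lower coordinates. The start sites of DLX3 and COL1A1 lie 206 kb apart. In the order of the RefSeq gene table of GRCh38.p14, KAT7 and TAC4 precede DLX4, the protein-coding genes ITGA3, PDK2, SAMD14, PPP1R9B and SGCA lie between DLX3 and COL1A1, and TMEM92 follows. That table has another build than the files, so anchors were not assigned to these neighbours.

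The strongest contact of the region joined the DLX3 start to a distant anchor on the far side of DLX4. The anchor at 48071814-48076569 covers the DLX3 start site, with 775 bp inside the gene and 3981 bp before its start. Its main partner was the anchor at 47937247-47940668, called the far anchor below, at a distance of 135 kb between midpoints. Their pair had 42 PETs in shLUC and 75 in shBORIS. Among all intrachromosomal pairs of the genome, 12 had at least as many PETs in shLUC and 4 had at least as many in shBORIS, each count including the pair itself. Among pairs spanning 100 to 500 kb, 5 of 28478 in shLUC and 1 of 30726 in shBORIS had at least as many. Divided by the intrachromosomal total of each table, the PETs gave a scaled ratio of shBORIS to shLUC of 1.6 (exact 95% interval 1.08 to 2.39). Here and below, a scaled ratio of 1 means an equal share of the intrachromosomal PETs, and the interval covers counting error only.

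**Figure D1:**
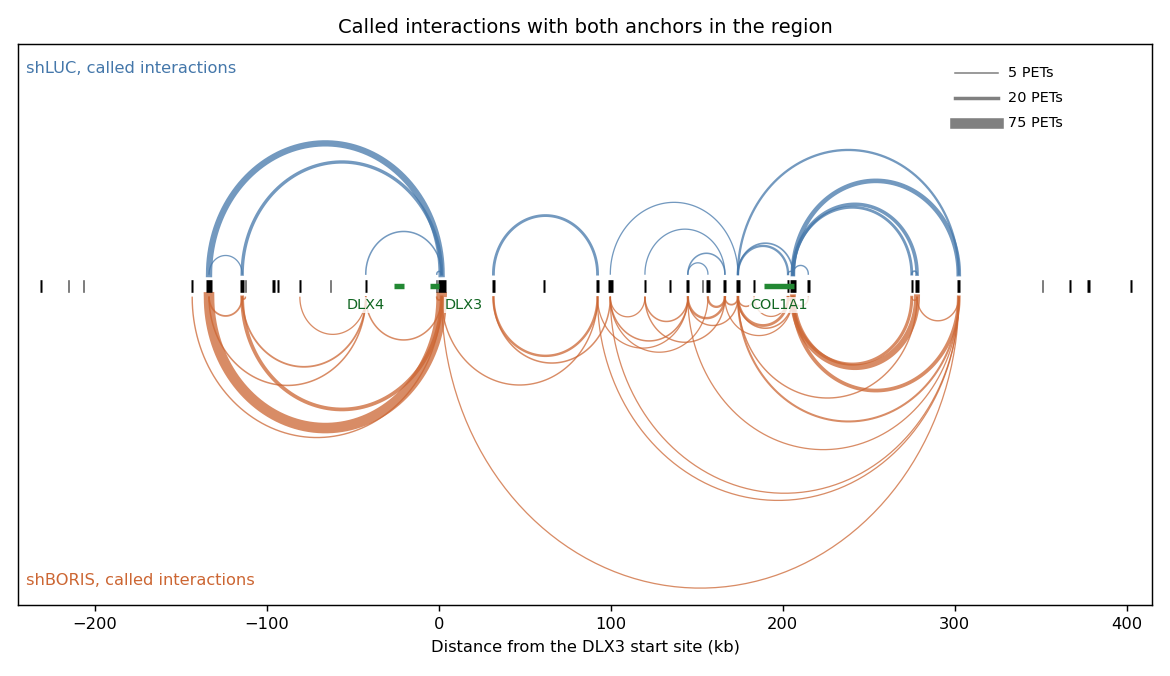
Called interactions with both anchors in the region, by distance from the DLX3 start site in kb; blue arcs above the axis are shLUC, orange arcs below are shBORIS, line width follows the PET count, black blocks are anchors and green bars the genes. The DLX3 start and the far anchor, 135 kb apart, are joined by 42 and 75 PETs, and the COL1A1 start is joined to 3 anchors at higher coordinates.

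The DLX3 start anchor directed most of its contacts to one side. Of its 89 intrachromosomal PETs in shLUC, 79 led to lower coordinates, or 88.8% (exact interval 80.3 to 94.5). In shBORIS 127 of 137 did so, or 92.7% (87.0 to 96.4). DLX3 is read towards lower coordinates, so these contacts lay on the side of its gene body and of DLX4. The far anchor took 47.2% of the PETs of the DLX3 start in shLUC and 54.7% in shBORIS. The next partner, at 47957242-47959193 and 116 kb away, had 19 PETs in shLUC and 22 in shBORIS, a scaled ratio of 1.04 (0.536 to 2.03). Together both partners held 68.5% of the anchor's PETs in shLUC (57.8 to 78.0) and 70.8% in shBORIS (62.4 to 78.3), and the intervals overlap widely. Without the strong pair, the 2 anchors that overlap DLX3 had a scaled ratio of 1.17 (0.794 to 1.72).

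A second anchor inside DLX3, at 48071038-48071736, lies only 77 bp from the start anchor. It had 8 intrachromosomal PETs in shLUC and 10 in shBORIS, and its contact with the far anchor had 1 PET in each table. The long contact was thus counted almost wholly on the start anchor, which at 4756 bp is also far wider than the inner anchor at 699 bp. The remaining partners of the DLX3 start were weaker. The anchor at 48029362-48030830, between the far anchor and DLX4, had 5 PETs with it in each table. The anchor at 48164139-48165632, on the COL1A1 side, had 2 in shLUC and 4 in shBORIS. In all, 4 interactions of the DLX3 start were called in shLUC and 7 in shBORIS, and the 4 were among the 7. A call required at least 3 PETs and a Bayes probability, deposited by the authors for each pair, of at least 0.9. Called in shBORIS alone were its contacts with 48164139-48165632, with 47928398-47929908 (0 and 4 PETs) and with 48374152-48375740 (1 and 3 PETs). Each of these rests on 3 or 4 PETs.

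DLX4 itself carried no anchor. The nearest lay 15.7 kb before its start and 18.7 kb after its end, so the tables hold no contact of the DLX4 promoter. The gene lies under the loops of its neighbour. PETs under 2 Mb that spanned DLX4 numbered 82 in shLUC and 140 in shBORIS, and 70 and 116 of them, or 85.4% and 82.9%, ended at the DLX3 start anchor. These counts include the 42 and 75 PETs of the strong pair.

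Most contacts of the far anchor led to the DLX3 start. These were the 42 and 75 PETs of the strong pair that the region was chosen around, so their share is a description only. Of its 53 intrachromosomal PETs in shLUC and 105 in shBORIS, 79.2% (65.9 to 89.2) and 71.4% (61.8 to 79.8) led to the DLX3 start, and 1 and 7 PETs led to lower coordinates. Its interchromosomal PETs numbered 71 and 87, a ratio of 1.23 (0.891 to 1.71) after division by the interchromosomal totals. The next partner of the far anchor, at 47957242-47959193, had 3 PETs with it in shLUC and 7 in shBORIS and was called in both. The scaled ratio was 2.09 (0.477 to 12.5; adjusted p = 0.985, Fisher's exact test). Between the far anchor and DLX3, contacts among the intermediate anchors were few in shLUC. The anchor at 48029362-48030830 had 1 PET in shLUC and 7 in shBORIS with 47957242-47959193, a scaled ratio of 6.27 (0.806 to 283). With the far anchor it had 1 and 5 PETs, a ratio of 4.48 (0.501 to 212). Both intervals include 1. Its contacts with other intermediate anchors went both ways. With 47959684-47960454 and with 47975599-47977322 it had 2 PETs each in shLUC and 0 in shBORIS. With 47991019-47992523 it had 1 and 3, and with 47978626-47979745 it had 0 and 2. Over all its partners the anchor at 48029362-48030830 had 15 PETs in shLUC and 27 in shBORIS, with 1 call and 4 calls.

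The COL1A1 start anchor showed the reverse direction. The anchor at 48276781-48280218 covers the COL1A1 start site, with 2220 bp inside the gene and 1218 bp before it. It had 96 intrachromosomal PETs in shLUC and 124 in shBORIS, a scaled ratio of 1.16 (0.880 to 1.53; adjusted p = 0.996 over all anchors, Fisher's exact test). Only 17.7% of them in shLUC (10.7 to 26.8) and 25% in shBORIS (17.7 to 33.6) led to lower coordinates. COL1A1 is also read towards lower coordinates, so most of its contacts lay upstream of the start, on the side away from the gene body and from DLX3. A difference between the left-hand shares of the DLX3 start and the COL1A1 start was not tested. The 79 and 127 left-hand PETs of the DLX3 start include the 42 and 75 of the strong pair that the region was chosen around.

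**Figure D2:**
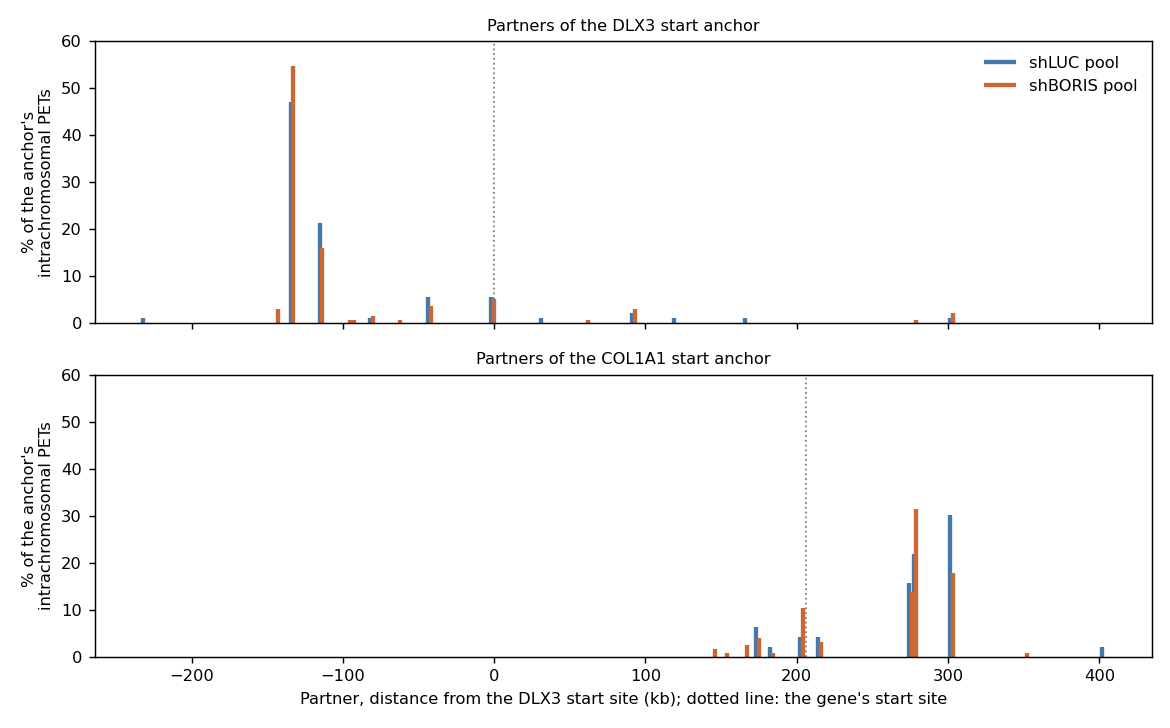
Share of the intrachromosomal PETs of the DLX3 start anchor (top) and of the COL1A1 start anchor (bottom) that led to each partner, in percent, by the partner's distance from the DLX3 start site in kb; blue is the shLUC pool, orange the shBORIS pool, and the dotted line marks the gene's start site. The far anchor takes 47.2% and 54.7% of the DLX3 start's PETs, while the COL1A1 start divides its own mainly among 3 anchors.

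Of the 79 upstream PETs in shLUC and 93 in shBORIS, 65 and 78 went to 3 anchors within 100 kb. The anchor at 48349750-48351603, 72.2 kb away, had 21 PETs with the COL1A1 start in shLUC and 39 in shBORIS, a scaled ratio of 1.66 (0.955 to 2.98; adjusted p = 0.825, Fisher's exact test). The anchor at 48374152-48375740, 96.4 kb away, had 29 and 22, a ratio of 0.680 (0.372 to 1.23; adjusted p = 0.962, Fisher's exact test). The anchor at 48346933-48348282, 69.1 kb away, had 15 and 17, a ratio of 1.02 (0.477 to 2.18). The leading partner by count was thus the most distant of the 3 in shLUC and the middle one in shBORIS, but neither change passed the test. The 3 held 67.7% of the anchor's PETs in shLUC (57.4 to 76.9) and 62.9% in shBORIS (53.8 to 71.4).

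An inner COL1A1 anchor at 48274854-48276462, 318 bp from the start anchor, differed from it in its main partner. It had 24 intrachromosomal PETs in shLUC and 38 in shBORIS. With the 3 upstream anchors it had 3 PETs in shLUC and 1 in shBORIS, where the start anchor had 65 and 78. Its own main partner was the anchor at 48245248-48247811, past the end of COL1A1, with 11 and 15 PETs. The start anchor contacted 48245248-48247811 as well, with 6 and 5 PETs, and that contact was called in both tables. Within COL1A1 the contact between the inner and the start anchor had 4 and 13 PETs, a scaled ratio of 2.91 (0.90 to 12.3; adjusted p = 0.817, Fisher's exact test). The inner anchor also had 27 interchromosomal PETs in shLUC and 53 in shBORIS, a ratio of 1.98 (1.22 to 3.27; adjusted p = 0.626 over all anchors, Fisher's exact test). Taking both COL1A1 anchors, PETs numbered 116 and 149, a scaled ratio of 1.15 (0.897 to 1.48), with 7 interactions called in both tables, 2 in shBORIS alone and 0 in shLUC alone.

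No contact between DLX3 and COL1A1 was detected: the count between their anchors was 0 in each table, which allows up to 3 PETs. More widely, PETs within the region that ran from the DLX3 start or any lower anchor to the COL1A1 anchors or any higher one numbered 1 in shLUC and 5 in shBORIS. With anchors outside the region included, but spans kept under 2 Mb, they numbered 4 and 13. The number of PETs spanning each gap between neighbouring anchors was uneven along the region. From just after the far anchor up to the DLX3 start, between 61 and 86 PETs in shLUC and 118 to 151 in shBORIS spanned each gap. Each of these counts includes the 42 and 75 PETs of the strong pair that the region was chosen around. Without those PETs, no gap of this stretch would exceed the highest between DLX3 and COL1A1. Directly after the DLX3 start anchor the numbers were 15 and 30. They were at most 54 and 80 up to COL1A1, and 107 and 132 directly after the COL1A1 start anchor. Past the anchor at 48374152-48375740 they were 16 and 26, and before the far anchor 13 and 26.

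**Figure D3:**
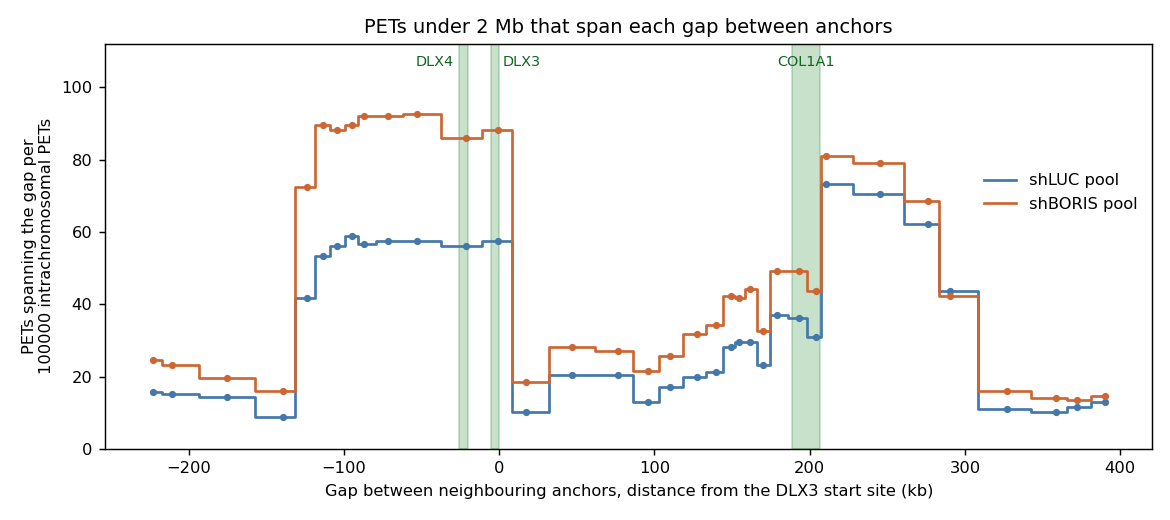
PETs under 2 Mb that span each gap between neighbouring anchors, scaled to the same number of intrachromosomal PETs per table, by distance from the DLX3 start site in kb; points are gaps, blue is the shLUC pool, orange the shBORIS pool, and green bands are the genes. A plateau over DLX4 and DLX3 drops to 15 and 30 PETs (unscaled) after the DLX3 start, and a further one begins at the COL1A1 start. The plateau over DLX4 and DLX3 includes the 42 and 75 PETs (unscaled) of the strong pair that the region was chosen around.

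Between DLX3 and COL1A1 lay 12 anchors. PETs with both ends among these 12 numbered 51 in shLUC and 101 in shBORIS, a scaled ratio of 1.78 (1.26 to 2.54). For the 14 anchors up to the DLX3 start the values were 92 and 157, a ratio of 1.53 (1.18 to 2.0), or 50 and 82 and a ratio of 1.47 (1.02 to 2.13) without the strong pair. For the 10 anchors from COL1A1 on they were 90 and 107, a ratio of 1.07 (0.798 to 1.43). The intervals of the 3 stretches overlap, and a difference between them was not tested. The interchromosomal PETs of the same anchors gave ratios of 1.10 (0.940 to 1.28) between the genes, 1.07 (0.918 to 1.25) up to DLX3 and 0.901 (0.772 to 1.05) from COL1A1 on. The stretches were drawn at the genes' anchors after the data had been seen.

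Among the anchors between the genes, the widest gap in counts was at 48238118-48239773, with 17 PETs under shLUC and 51 under shBORIS, a scaled ratio of 2.69 (1.53 to 4.97; adjusted p = 0.224, Fisher's exact test). The anchor at 48216477-48218338 had 18 and 46, a ratio of 2.29 (1.30 to 4.20; adjusted p = 0.459, Fisher's exact test). At 48227926-48230234 there were 9 and 21 PETs, a ratio of 2.09 (0.918 to 5.19; adjusted p = 0.789, Fisher's exact test). These 3 anchors contacted each other: 48216477-48218338 and 48238118-48239773 shared 5 and 12 PETs, and 48227926-48230234 and 48238118-48239773 shared 2 and 11. The remaining pair, 48216477-48218338 with 48227926-48230234, numbered 3 PETs in the shLUC table against 2 and was called in shLUC alone. Their interchromosomal PETs were nearly equal in the tables, with 45 and 49 at 48238118-48239773, 33 and 38 at 48216477-48218338, and 27 and 26 at 48227926-48230234. The pair with the most PETs between the genes, from 48103232-48105449 to 48164139-48165632 across 60.5 kb, had 15 of the 51 PETs of this stretch in shLUC and 12 of the 101 in shBORIS, a scaled ratio of 0.717 (0.306 to 1.64).

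Of the 36 anchors, 9 had fewer than 10 intrachromosomal PETs summed over the tables and were not tested. Besides the DLX3 start and the far anchor, 25 were tested, and 0 passed after adjustment over the 19623 anchors tested in the genome (smallest adjusted p = 0.224, Fisher's exact test). Genome-wide 0.0153% of tested anchors were higher and 0.0051% lower in shBORIS. An unadjusted p under 0.05 was found for 2 of the 25, against 6.43% of all tested anchors. Both were higher in shBORIS, as were 3.25% of all tested anchors at that p. The direction was more uneven: 20 of the 25 had a scaled ratio above 1, against 50.3% of all tested anchors, and their median ratio was 1.34, against 1.01. Anchors that contact each other share PETs, so the 20 are not independent. The highest ratios stood at the anchors 48216477-48218338, 48227926-48230234 and 48238118-48239773 given above and at 2 sparse anchors before DLX4. Of these, 47991019-47992523 had 3 and 10 PETs and 47978626-47979745 had 3 and 8. The lowest ratio, 0.566 (0.251 to 1.23), was that of 48474298-48475655, where 19 PETs stood against 12. Next came 48346933-48348282 with 28 and 24, 48374152-48375740 with 59 and 53, 48103232-48105449 with 24 and 22, and 47928398-47929908 with 15 and 15.

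**Figure D4:**
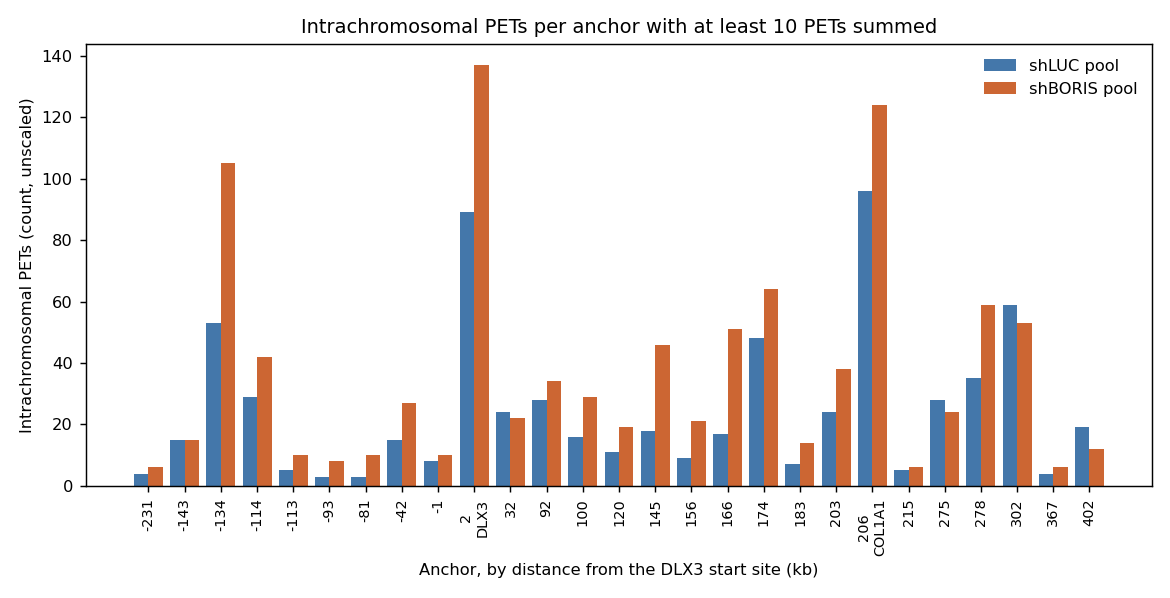
Intrachromosomal PETs (unscaled counts) of the 27 anchors with at least 10 summed over the tables, in order along the chromosome and labelled by distance from the DLX3 start site in kb; blue bars are the shLUC pool and orange bars the shBORIS pool. The DLX3 start (89 and 137) and the COL1A1 start (96 and 124) carry the most, and the anchors at 145 to 166 kb show the widest relative gaps among those with over 20 PETs summed.

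Across anchors, PETs followed width and coverage. The log10 of the summed intrachromosomal PETs correlated with the log10 of anchor width with r = 0.74 over the 36 anchors, and with the log10 of the summed interchromosomal PETs with r = 0.83. These are descriptions, since anchors share PETs and libraries. With 89 and 137 PETs the DLX3 start ranked among the 61 anchors of the genome with the most intrachromosomal PETs in shLUC and the 22 with the most in shBORIS. For the COL1A1 start the ranks were 41 and 40. The counts behind the ranks of the DLX3 start include the 42 and 75 PETs of the strong pair that the region was chosen around.

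Of the 332 intrachromosomal pairs, 247 were seen as a single PET over both tables, and 16 reached the 10 PETs required for a test. Setting aside the strong pair, 15 were tested and 0 passed after adjustment over 3951 pairs of the genome (smallest adjusted p = 0.731, Fisher's exact test). Genome-wide 0.0506% of tested pairs were higher and 0% lower. A single one of the 15 had an unadjusted p under 0.05, against 5.69% of all. It was the contact of 48227926-48230234 with 48238118-48239773, with 2 and 11 PETs and a scaled ratio of 4.93 (1.08 to 45.8). Above 1 lay 9 of the 15 ratios, against 51.2% of all tested pairs, and their median was 1.04, against 1.02. The ratios of the 15 tested pairs were spread around 1, whereas those of the tested anchors lay mostly above it. The 316 pairs under 10 PETs are not among the 15 but enter the sums per anchor. The pair and anchor ratios thus do not cover the same contacts. The lowest pair ratio was 0.570 (0.187 to 1.61), for 48474298-48475655 with an anchor outside the region at 48555289-48557535, with 11 and 7 PETs. The contact of 48245248-48247811 with 48374152-48375740 had 11 and 9 PETs, and that of 48245248-48247811 with the COL1A1 start had 6 and 5.

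Called interactions were more numerous in shBORIS. There were 22 in shLUC and 45 in shBORIS, where the genome had 11236 and 13111. The minimum of 3 PETs was not scaled to the intrachromosomal totals, which were 146140 in shLUC and 163041 in shBORIS. Of the region's 48 called in either table, 19 were shared, or 39.6%, against 34.8% in the genome. Only 3 were called in shLUC alone, or 6.25%, against 27.4% in the genome, and 26 in shBORIS alone, or 54.2%, against 37.8%. The 3 called in shLUC alone each had 3 PETs there and at least 1 in shBORIS. Of the 26 called in shBORIS alone, 19 had at least 1 PET in shLUC, and their median was 4 PETs in shBORIS and 1 in shLUC. Thus most calls of shBORIS alone rest on counts near the minimum. Between DLX3 and COL1A1, 10 interactions were called in shBORIS alone, 2 in shLUC alone and 3 in both. Up to the DLX3 start there were 5 in shBORIS alone, 0 in shLUC alone and 5 in both, and from COL1A1 on 1, 0 and 6. In 21 of the 25 anchors with a call, shBORIS had more calls than shLUC, and in 0 it had fewer. Over the genome 42% of the 18222 anchors with a call had more in shBORIS and 30.1% had fewer. Anchors share calls, so those with more calls in shBORIS are not independent. All 25 had a call in shBORIS, but only 21 had one in shLUC. The others entered through shBORIS and could only count as having more calls there. The genome shares were taken with the same filter. The anchors with the most calls were the DLX3 start (4 in shLUC, 7 in shBORIS), the COL1A1 start (6 and 7), 48245248-48247811 (4 and 7), 48374152-48375740 (2 and 7) and 48216477-48218338 (2 and 6).

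Taken over all pairs, intrachromosomal PETs with an anchor in the region numbered 403 in shLUC and 581 in shBORIS, a scaled ratio of 1.29 (1.14 to 1.47). PETs with both anchors inside numbered 288 and 446, a ratio of 1.39 (1.19 to 1.62), or 246 and 371 and a ratio of 1.35 (1.15 to 1.59) without the strong pair. PETs with a single anchor inside numbered 115 and 135, a ratio of 1.05 (0.814 to 1.36). Interchromosomal PETs of the region numbered 1006 and 1019, a ratio of 1.02 (0.934 to 1.11) after division by the interchromosomal totals. Their sum over the region's anchors was thus nearly equal in the tables. Single anchors differed in both directions, with 27 and 53 at 48274854-48276462 and 53 and 32 at 48349750-48351603, though 0 of 32 tested passed after adjustment. The intrachromosomal share of PET ends at the region's anchors was 40.7% in shLUC and 50.2% in shBORIS, against 39.6% and 43.0% over chromosome 17 and 33.6% and 36.2% over the genome. Chromosome 17 as a whole had a scaled ratio of 1.06 (1.04 to 1.09).

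The ratio was set beside that of windows of the same 700 kb width tiled over the genome. Of 254 windows with at least 200 PETs inside, 12, or 4.72%, had a ratio as high as the region, itself included. The median window had 1.08, and the central 95% of windows lay between 0.811 and 1.46, a range that holds the region's 1.39. On chromosome 17, 2 of 34 such windows were as high. Of the 22 windows with at least as many PETs as the region, it had the highest ratio, and the next had 1.33. The count of the region includes the strong pair that it was chosen around. At its ratio of 1.35 without that pair, 16 of the 253 other windows, or 6.32%, were as high, where 11 were as high as 1.39. Of the 36 other windows with at least as many PETs as the region without that pair, 0 were as high. The leading pairs of the other windows were kept. Among all 254 windows, many of them with fewer PETs, the region stood in the upper part of the spread and not outside it.

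**Figure D5:**
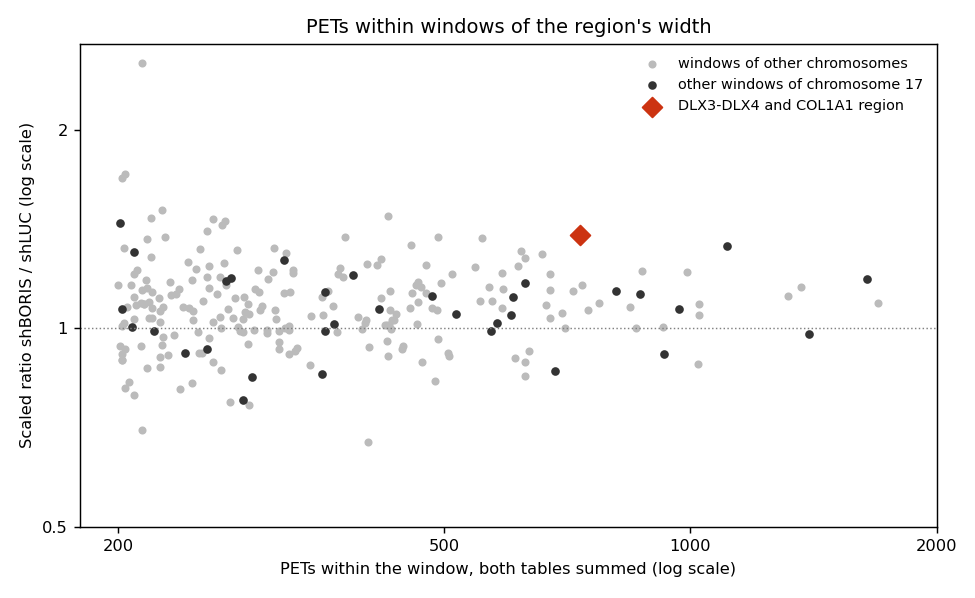
Scaled ratio of shBORIS to shLUC (log scale) against the PETs within each 700 kb window summed over the tables (log scale), for windows with at least 200 PETs; grey points are other chromosomes, black points chromosome 17, and the red diamond is the region at 1.39. The spread of ratios narrows towards windows with more PETs, and the region lies at the upper edge for its count.

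By span, the ratio was above 1 in each class under 2 Mb. Pairs under 20 kb had 38 PETs in shLUC and 79 in shBORIS, a scaled ratio of 1.86 (1.25 to 2.82), where the genome had 1.08. At 20 to 100 kb there were 170 and 241, a ratio of 1.27 (1.04 to 1.56), against 1.03 in the genome. At 100 to 500 kb there were 123 and 179, a ratio of 1.30 (1.03 to 1.65), against 0.981. This class holds the strong pair, and without it there were 81 and 104 PETs, a ratio of 1.15 (0.852 to 1.56) whose interval includes 1. From 500 kb to 2 Mb there were only 8 and 13 PETs, and the interval (0.560 to 4.05) included 1. Above 2 Mb there were 64 and 69, a ratio of 0.966 (0.678 to 1.38). Contacts of 20 to 100 kb made up 42.2% of the region's intrachromosomal PETs in shLUC and 41.5% in shBORIS, against 28.6% and 29.5% in the genome. Contacts under 20 kb held 9.43% in shLUC and 13.6% in shBORIS, and those above 2 Mb held 15.9% and 11.9%.

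Contacts with other chromosomes were nearly all single events. Of 2008 interchromosomal pairs, 1991 were seen as a single PET over both tables, or 99.2%, against 99.5% in the genome. The other 17 had 2 PETs each, 6 of them in shLUC alone, 5 in shBORIS alone and 6 with 1 PET in each table. Of 32 anchors of the region tested on interchromosomal PETs, 0 passed (smallest adjusted p = 0.626, Fisher's exact test), where 0.014% of tested anchors did in the genome. An unadjusted p under 0.05 was found for 6 of the 32, 3 of them higher in shBORIS, against 5.56% of all tested anchors, and 18 had a ratio above 1, against 52.5%.

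At the lower bound of the region, the nearest anchor inside, 47840452-47841985, had 4 intrachromosomal PETs in shLUC and 6 in shBORIS, and the nearest outside, 47784779-47786524, had 14 and 12. At the upper bound 48474298-48475655 inside had 19 and 12, and 48502381-48503735 outside had 2 and 4.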

How the data were processed

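The authors' tools included cutadapt 1.8 and Bowtie with the build hg19, per the submitters' processing notes. How anchors were defined and pairs scored is not given in the sources used here. Each deposited PET count of an anchor pair is a whole number from 1, per the file headers, and was used unnormalized. The authors' Bayes probability, a fraction between 0 and 1 per the file headers, served for calls. The authors' hypergeometric p-value was not used. Columns of the deposited shBORIS table, which lacks a header, were taken to follow those of shLUC. Totals were 434975 PETs in shLUC and 449979 in shBORIS.

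Coordinates are 1-based hg19, and gene positions came from the definition of the region. Strands are background knowledge. Pairs and anchors with at least 10 PETs summed entered a Fisher's exact test, two-sided, against the other PETs of the same kind, with Benjamini-Hochberg adjustment over the genome and a threshold of 0.05. These tests compare 2 pools and not the conditions. Scaled ratios carry exact 95% Clopper-Pearson intervals from the split of the summed PETs. Counting error is all that the intervals, and the floor of 3 counts, cover, since PCR copies without molecular identifiers are not independent molecules. Members, stretches and named items were chosen with earlier results of these data known. Named were the 3 genes' anchors, the 10 pairs with the most PETs, the 5 highest and lowest tested ratios and the 5 anchors with the most calls. Scripts were tested on simulated counts. Python 3.11.15, SciPy 1.17.1 and pandas 2.3.3 were used. Gene lists beyond the members, and anchor sequences, were not analysed here.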

Additional observations from a re-analysis of the deposited data

How the results depend on the processing

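For 18 results 56 alternatives were run. A value counted as moved when a count differed by over 1.5 times or a ratio left its interval, which 7 did and 49 did not. Those without the strong pair were added after the data had been seen. With at least 5 PETs for a call, 14 interactions were called in shLUC and 25 in shBORIS, 1 in shLUC alone and 12 in shBORIS alone, as a higher minimum leaves fewer. With a Bayes probability of at least 0.99, 1 was called in shLUC alone. PETs from the DLX3 side to the COL1A1 side numbered 802 in shLUC and 971 in shBORIS when all of chromosome 17 was counted, and 1 and 5 with both anchors inside, which is the count given in the report. Other scalings and filters gave ratios of 1.22 to 1.39 for the region and 0 passing pairs or anchors, with a smallest adjusted p between 0.157 and 1. With an assumed negative binomial dispersion of 0.1, an unadjusted p under 0.05 was found for 0 of 15 pairs and 0 of 25 anchors. The COL1A1 ratio lay between 1.10 and 1.24, and its interval included 1 in each setting run. That of DLX3 lay between 1.36 and 1.47 in the settings that kept the strong pair. Their intervals lay above 1 but rest on that contact, which the region was chosen around. In the only setting without it the DLX3 ratio was 1.17 (0.794 to 1.72), and the interval included 1. With so few PETs per pair, only large changes could pass. No paired analysis was possible because the libraries of a group are summed in its table, and for the same reason no library could be left out.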
